A study of Mus musculus with 19 samples.

Results

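The potassium channel genes were taken as all protein-coding genes whose mouse symbol begins with Kcn, and 94 of the 21974 protein-coding genes in the tables met that rule. Of these, 67 encode pore-forming subunits. Another 10 encode the electrically silent Kcnf, Kcng, Kcns and Kcnv subunits, which modify the voltage-gated pores they join. The remaining 17 encode auxiliary subunits or assembly partners (Kcnab, Kcnip, Kcne, Kcnmb and Kcnrg), so the symbol covers more than the channels themselves.

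Cerebral cortex of male P301S/E4 mice was the source of the RNA. The name refers to a tau mutation that causes tauopathy and to the human E4 form of apolipoprotein E. By the labels all mice were 41 weeks old and of that genotype, and no group is labelled as lacking the tau or apolipoprotein alleles. A group of 10 libraries came from mice gavaged with lemborexant, a dual orexin receptor antagonist, at 30 mg/kg once a day at zeitgeber time 13. The other 9 libraries came from mice gavaged with the vehicle, 0.5% methylcellulose, on the same schedule from 7.5 to 9.5 months of age. The promoter that drives the tau transgene is not given in the sources used here, and the labels do not say that each library is a separate animal.

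Potassium channels let potassium leave or enter a cell and so set its resting voltage and the shape and rate of its electrical signals. The voltage-gated pores (Kcna to Kcnd, Kcnh and Kcnq) mostly repolarise neurons, the calcium- and sodium-activated pores (Kcnma, Kcnt and Kcnn) follow activity, and the inward rectifiers (Kcnj) and tandem-pore leak channels (Kcnk) act near rest. In glia, Kcnj10 is known for clearing potassium around active neurons, and microglia use a small set of channels that includes Kcnk13. Microglia are the immune cells of the brain.

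Between 20185098 and 31795633 estimated reads per library were assigned to genes, and 40275 to 90920 of them to the 94 channel genes. A set of 3 pairs of lemborexant libraries (1 and 10, 3 and 8, and 4 and 9) was nearly alike. Their counts differed by a chi-square of 3.08 to 3.66 per degree of freedom, against 12.2 to 274 for the other 168 pairs. That is more than counting alone gives, which does not show that the 2 libraries of a pair come from separate animals, and whether they do is not given in the sources used here. Each pair joins a library numbered 859 to 933 to one numbered 1064 to 1602. The numbers are 907 and 1064 (lemborexant 10 and 1), 859 and 1370 (8 and 3), and 906 and 1374 (9 and 4). Every lemborexant library of the lower range is thus in a pair. The labels list the paired libraries as separate samples, so the first count of each comparison keeps them apart, and it stands beside the count with every pair summed into 1 unit (16 units, 7 of them lemborexant). In 4 libraries Cst7, a gene of disease-associated microglia, was below 1 CPM (read counts scaled to library size): 0.115 in lemborexant 1, 0.253 in lemborexant 10, 0 in vehicle 1 (which allows up to 0.147) and 0.188 in vehicle 4. The other 15 held 16.4 to 144 CPM. The same 4 libraries had 430 to 582 CPM of the astrocyte gene Gfap (3023 to 8699 in the others), and 311 to 468 CPM of Mapt, the mouse tau gene (574 to 1046 in the others). All 4 are labelled P301S/E4, as are the other 15, from which these values set them apart. Whether the 4 carry the labelled alleles was not tested. No marker of the 17 lists of cell types and brain regions was at 0 in all libraries, and those of hippocampus, thalamus and striatum were detected beside those of cortical neurons. The hippocampal markers, a list known from earlier results of these data to differ, gave scores (mean centred log2 CPM) of 0.355 to 0.814 in vehicle and −1.30 to 0.351 in lemborexant.

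Auxiliary subunits were among the most abundant of these transcripts. The 17 auxiliary genes summed to 454.3 ± 104 TPM (a transcript level corrected for gene length and library size; SD, n = 19), against 574.5 ± 154 TPM for the 67 pore genes and 42.6 ± 12.7 TPM for the 10 silent subunits. On the same scale Kcnab2, a beta subunit of the Shaker channels, had the highest mean at 178.7 ± 64.6. Next came Kcnj13, an inward rectifier of the choroid plexus, at 100.03 ± 88.8, and Kcnip3, a calcium-binding partner of A-type channels, at 68.0 ± 17.1. The leak channel Kcnk1 followed at 59.99 ± 9.25, the smallest relative spread of these 4. From Kcnab2 to Kcnab1 (54.7 ± 17.4) neighbours in this order did not differ beyond their spread, and neither did Kcnip2 (33.5 ± 10.7), Kcnip4 (32.5 ± 11.1) and the inward rectifier Kcnj9 (27.1 ± 12.4). The 8 most abundant genes held 51.8% of the summed TPM of all 94.

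Of the 94 genes, 27 had a mean of at least 10 TPM and 67 of at least 1 TPM, while 11 were below 0.1 TPM. Of the voltage-gated pores, Kcna1, an axonal Shaker channel, had a mean of 21.4 ± 7.19 TPM. Kcnd2, the main A-type pore of dendrites, stood at 17.9 ± 3.71 TPM, and Kcnc2, a pore of fast-spiking interneurons, at 15.7 ± 4.70 TPM. Among activity-gated pores Kcnma1, the large-conductance calcium-activated channel, reached 20.6 ± 6.05 TPM and the small-conductance Kcnn2 19.8 ± 3.23 TPM. The glial Kcnj10 reached 22.3 ± 8.68 TPM and its partner Kcnj16 14.1 ± 3.71 TPM. By subfamily the summed TPM was highest in Kcnab (245.9 ± 81.4) and Kcnj (212.9 ± 103), then Kcnip (146.0 ± 30.6) and Kcnk (99.6 ± 13.5). The Kcnj sum includes the choroid plexus gene Kcnj13 (100.03 ± 88.8), on which its rank above Kcnip rests. The sum was 60.8 ± 14.3 in Kcna and 47.3 ± 10.6 in Kcnc.

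**Figure D1:**
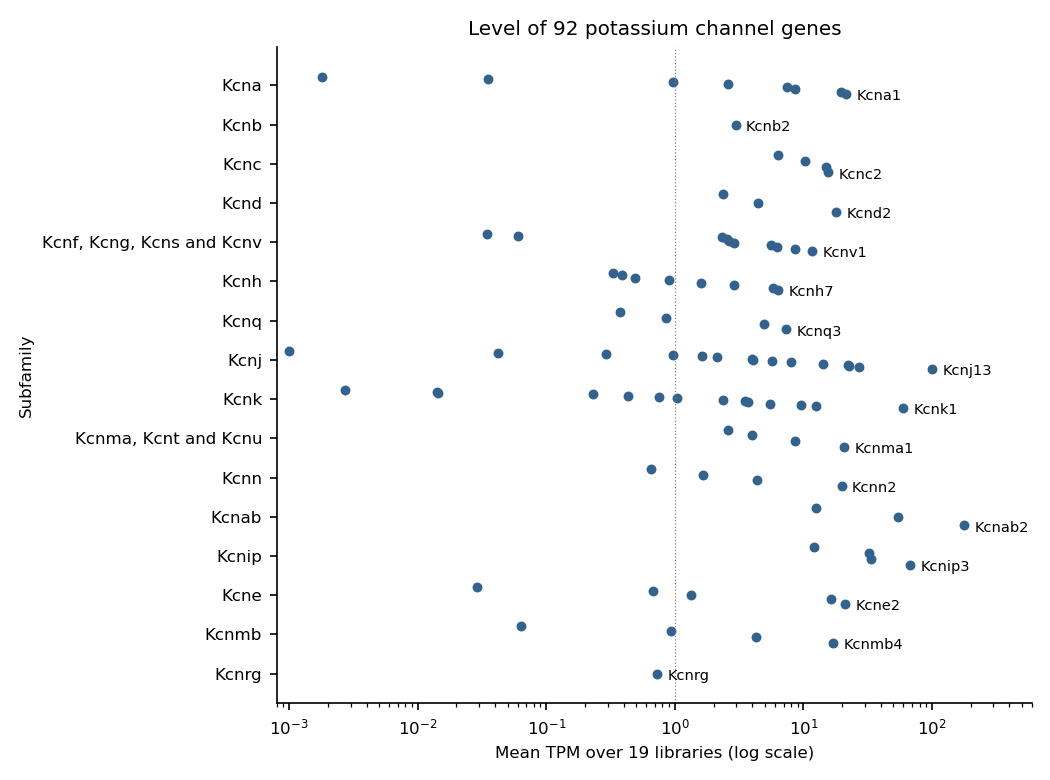
Mean TPM over the 19 libraries (log axis) of 92 of the genes, by subfamily, with the highest gene drawn in each named and a dotted line at 1 TPM. Kcnab2 (178.7 TPM) and Kcnj13 (100.03 TPM) stand furthest right, and 65 of the 92 lie at or beyond the line.

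The first comparison asked which of these genes differed between lemborexant and vehicle. edgeR's quasi-likelihood test called 4 of the 81 genes that passed its expression filter at an adjusted p under 0.05, which is 4.94%, against 2.61% of all 19105 genes tested. None of the 4 was called with the nearly alike pairs summed. Kcnt1 and Kcnh5 were higher (0.953% of all genes were) and Kcng2 and Kcnip2 lower with lemborexant (1.65% of all genes were). The other 13 genes were too low to test. The median log2 difference of the 81 was 0.03, the same as over all genes tested (0.03), and no gene had CPM ranges that did not overlap between the treatments. In all genes tested 0.0523% were higher and 0.141% lower without overlap. At an unadjusted p under 0.05 there were 23 of the 81 (28.4%), against 25.7% of all genes.

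Kcng2 encodes a silent subunit that joins Kcnb pores. Its level was 1.97 to 4.11 CPM (median 2.61) in the lemborexant libraries and 3.71 to 8.09 CPM (median 5.31) in the vehicle libraries. Lemborexant 5 was the only lemborexant library inside the vehicle range, and the other 9 lay below it. Those 9 include all 3 nearly alike pairs. The log2 difference was −0.95 (SE 0.17, adjusted p = 0.0191), a 1.93-fold lower level. Kcng2 was called whichever of the 19 libraries was left out. Where that library belonged to a nearly alike pair, the other of the pair stayed in the fit. No pair was left out on its own in this comparison, so its weight was not tested this way.

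Kcnip2 (chr19:45791839-45816061, minus strand, GRCm38) encodes a calcium-binding subunit that brings A-type channels to the membrane. It stood at 22.1 to 64.4 CPM (median 36.5) with lemborexant and 61.8 to 98.0 CPM (median 63.9) with vehicle. Of the lemborexant libraries 9 lay below the lowest vehicle library, and lemborexant 1 lay inside the vehicle range. Lemborexant 10, nearly alike to lemborexant 1, lay just below that range at 59.99 CPM, and the 9 include both libraries of the other pairs. Kcnip2 differed by −0.79 on the log2 scale (SE 0.18, adjusted p = 0.0298), or 1.72-fold lower. Within the lemborexant group the levels were ordered much as the hippocampal scores: Kcnip2 was at 59.99 and 64.4 CPM in libraries 10 and 1 (scores 0.351 and 0.350) and at 24.4 and 22.1 CPM in libraries 6 and 7 (scores −1.19 and −1.30). With that score as a covariate the log2 difference of Kcnip2 was −0.15 (adjusted p = 0.584).

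Kcnh5 (chr12:74897220-75177332, minus strand) encodes a channel of the ether-a-go-go family. Its level was 0.927 to 4.89 CPM (median 3.78) with lemborexant and 0.564 to 1.98 CPM (median 1.66) with vehicle. A group of 7 lemborexant libraries lay above every vehicle library, and lemborexant 2, 5 and 6 lay inside their range. On the log2 scale Kcnh5 differed by 1.15 (SE 0.30, adjusted p = 0.0438), or 2.22-fold higher. The 7 high libraries include all 3 nearly alike pairs, so they stand for 4 units.

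Kcnt1 (chr2:25863734-25918273, plus strand) encodes a sodium-activated channel that follows bursts of firing. It was at 12.7 to 32.1 CPM (median 26.4) with lemborexant and 10.8 to 23.5 CPM (median 16.04) with vehicle. Lemborexant libraries lay above the highest vehicle library in 6 of 10 cases, and lemborexant 5 was the lowest of its group. Those 6 include the nearly alike libraries 1 and 10, and also 4 and 9. Kcnt1 was thus 0.59 higher on the log2 scale (SE 0.15, adjusted p = 0.0400), or 1.51-fold higher.

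**Figure D2:**
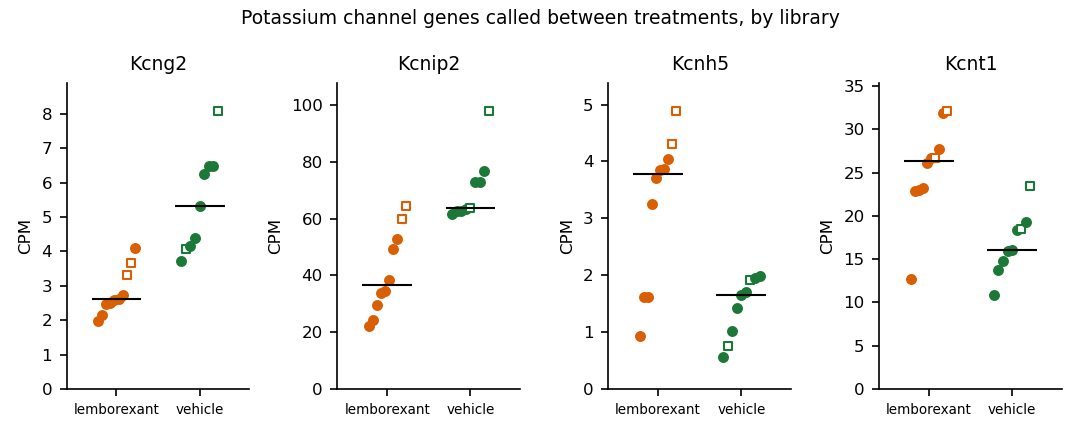
CPM of the 4 called genes in each library (points sorted within a group, lines at the medians; white squares mark the 4 libraries with Cst7 below 1 CPM). For Kcng2 and Kcnip2, 9 of the 10 lemborexant libraries lie below every vehicle library, while Kcnh5 and Kcnt1 are spread over both ranges.

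With the nearly alike pairs summed, 0 of 82 members and 0% of 19224 genes passed. The adjusted p was then 0.0711 for Kcng2, 0.0711 for Kcnip2, 0.118 for Kcnt1 and 0.139 for Kcnh5, with log2 differences of −0.93, −0.92, 0.56 and 0.98. In that fit 24 of the 82 had an unadjusted p under 0.05 (29.3%, against 21.3% of all genes). With the hippocampal score as a covariate 0 of 81 (0% of all genes) were called, and 11 members were at an unadjusted p under 0.05 (11.8% of all genes were). The log2 difference was then −0.63 for Kcng2, 1.33 for Kcnh5 and 0.53 for Kcnt1, each with an adjusted p of 0.398. The part that the amount of hippocampal tissue takes in these differences was not tested beyond this fit, since no lemborexant score reached the vehicle range. Hippocampal markers had a median log2 difference of −1.04 (4 of 15 called lower, against 1.65% of all genes). Other lists went up: thalamic 0.90 (2 of 12 called higher, against 0.953% of all genes), striatal 0.99 (1 of 15) and meningeal fibroblast 0.90 (0 of 8). With pairs summed 0 markers of these lists were called. The part of those other tissues was not tested. In a bulk sample, fewer cells of a type cannot be told apart from less RNA per cell.

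Without the 4 libraries with Cst7 below 1 CPM, 6 of 82 members were called (7.32%, against 2.71% of 19230 genes), and 3 of the 4 genes above were among them (Kcng2, Kcnip2 and Kcnt1). In that fit 3 members were higher (1.06% of all genes) and 3 lower (1.66% of all genes). The added ones were Kcnab2, which was lower (log2 difference −0.92, adjusted p = 0.0412), Kcne4, an inhibitory subunit, which was higher (0.96, adjusted p = 0.0399), and Kcnj10, which was higher (0.51, adjusted p = 0.0368). These 3 were chosen for mention after their values were seen. With the pairs also summed, 0 of 82 passed in edgeR (0% of all genes), and 26 were at an unadjusted p under 0.05 (31.7%, against 20.4% of all genes). With the Cst7 set as a covariate instead, 9 of 81 were called (11.1%, against 5.91% of all genes). The count moved to 1 without lemborexant 4, lemborexant 9, vehicle 4 or vehicle 5. It was 2 without lemborexant 3, 7 or 8 or vehicle 2, 3, 6 or 7, and 7 without lemborexant 6.

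Most subfamilies held no called gene. In the Kcna group 5 of 6 tested genes had a positive log2 difference (median 0.31) and in Kcnh 7 of 8 (median 0.34, 1 called). Of the silent subunits 7 of 8 had a negative one (median −0.35, 1 called). In Kcnj 7 of 13 were positive (median 0.03). The dominant Kcnab2 was at 128 to 626 CPM in lemborexant libraries and 494 to 728 CPM in vehicle libraries, with 8 of 10 lemborexant libraries below the lowest vehicle one (adjusted p = 0.0856). Those 8 include the nearly alike libraries 3 and 8, and also 4 and 9. The lowest Kcnab2 values, 128 and 169 CPM, were in lemborexant 7 and 6, the libraries with the lowest hippocampal scores. The summed TPM of all 94 genes was 1120 ± 252 with lemborexant (n = 10) and 1018 ± 212 with vehicle (n = 9).

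**Figure D3:**
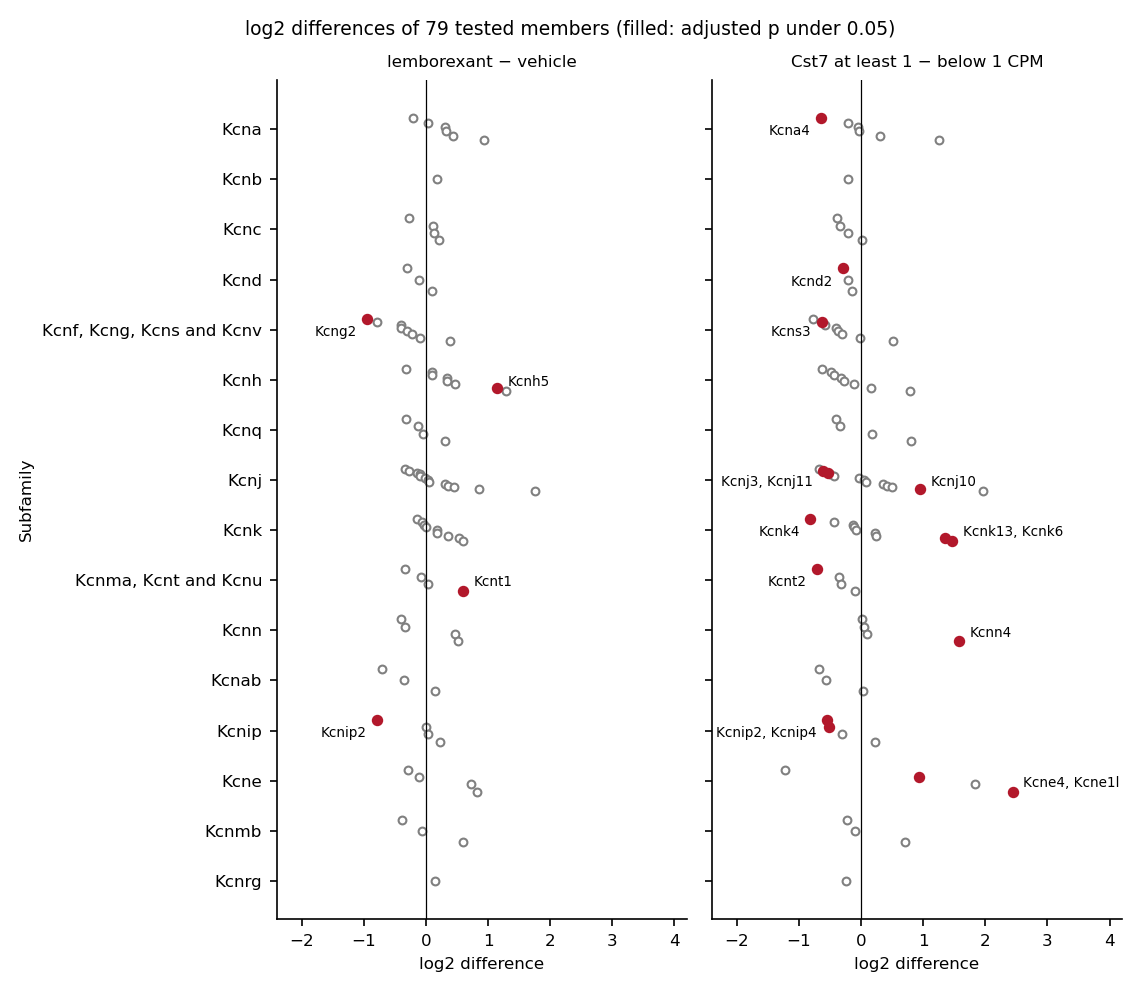
The log2 difference of 79 of the tested genes by subfamily, for lemborexant minus vehicle (left) and for libraries with Cst7 at least 1 CPM minus those below (right). Filled points passed an adjusted p of 0.05: 4 of the genes drawn on the left, and 15 on the right, of which 6 were higher and 9 lower.

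The second comparison set the 15 libraries with Cst7 of at least 1 CPM against the 4 below it. This split was made from the data and is not a label, its highest value below the bound was 0.253 and its lowest above was 16.4 CPM, and its p-values describe these libraries only. A difference in genotype, if the 4 libraries have one, cannot be told apart from this split. Treatment was kept in the fit, with 2 libraries of each treatment in the low set and 8 lemborexant and 7 vehicle libraries in the other. Because lemborexant 1 and 10 were nearly alike, the low set stands for 3 units. Of the 81 genes 16 were called (19.8%, against 19.6% of all genes tested), a share near the background. There were 6 higher (13.2% of all genes were) and 10 lower (6.41% of all genes were). The median log2 difference of the 81 was −0.21, against 0.00 over all genes, and 52 of the 81 were negative.

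With the pairs summed 8 of 82 were called (10.2% of all genes were), all 8 among the 16. Kcne1l, Kcnk6, Kcnk13 and Kcnj10 were higher where Cst7 was at least 1 CPM (8.45% of all genes were) and 4 were lower (1.78% of all genes were), among them Kcnk4, Kcns3 and Kcnj11. Leaving out lemborexant 1 or 10 alone took the count from 16 to 7 or 6. The 250 bases before the RefSeq start of 5 of these genes are shown, as the genes on which this comparison turns, 5′ to 3′ on the strand of each gene. They are from RefSeq's mouse table on GRCm38.p6, and Kcnk6 and Kcnj11 were not among its entries. The windows are chrX:142306199-142306448 (minus strand) for Kcne1l, chr12:99964249-99964498 (plus) for Kcnk13, chr1:172340960-172341209 (plus) for Kcnj10, chr19:6934516-6934765 (minus) for Kcnk4 and chr12:11150843-11151092 (minus) for Kcns3. Capitals mark matches, on either strand, to any of 6 motifs. GGGCGG is known as the GC box, and CCAAT gives its name to another promoter element. The TATA box was searched as TATAAA, the AP-1 site as TGANTCA, and the E-box as CACGTG. For ETS factors only GAGGAA was searched, so other runs with the shorter GGAA are not marked.
Kcne1l: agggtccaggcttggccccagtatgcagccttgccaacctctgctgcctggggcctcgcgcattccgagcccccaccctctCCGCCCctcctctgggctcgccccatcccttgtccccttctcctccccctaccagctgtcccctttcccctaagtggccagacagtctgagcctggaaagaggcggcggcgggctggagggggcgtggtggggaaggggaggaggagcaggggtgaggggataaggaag
Kcnk13: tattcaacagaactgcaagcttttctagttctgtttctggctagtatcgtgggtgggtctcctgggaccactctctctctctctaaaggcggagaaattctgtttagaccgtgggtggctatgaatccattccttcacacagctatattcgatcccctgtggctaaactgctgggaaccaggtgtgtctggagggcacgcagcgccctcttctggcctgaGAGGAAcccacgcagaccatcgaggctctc
Kcnj10: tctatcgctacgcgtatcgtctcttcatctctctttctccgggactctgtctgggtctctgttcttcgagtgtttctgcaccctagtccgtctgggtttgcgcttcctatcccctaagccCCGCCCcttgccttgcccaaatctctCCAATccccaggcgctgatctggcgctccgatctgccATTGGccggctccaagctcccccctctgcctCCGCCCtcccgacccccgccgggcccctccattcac
Kcnk4: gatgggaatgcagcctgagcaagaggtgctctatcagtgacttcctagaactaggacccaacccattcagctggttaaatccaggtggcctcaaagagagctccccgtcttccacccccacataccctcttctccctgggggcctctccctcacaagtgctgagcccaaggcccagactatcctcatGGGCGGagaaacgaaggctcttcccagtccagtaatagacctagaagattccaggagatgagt
Kcns3: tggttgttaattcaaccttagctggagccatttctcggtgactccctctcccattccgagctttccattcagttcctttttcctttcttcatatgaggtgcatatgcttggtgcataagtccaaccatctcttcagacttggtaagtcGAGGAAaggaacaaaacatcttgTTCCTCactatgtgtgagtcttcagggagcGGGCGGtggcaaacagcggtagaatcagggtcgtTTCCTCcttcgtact

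Kcnj10 held 2 GC boxes and 2 CCAAT boxes in this window, and Kcne1l and Kcnk4 a GC box each. Kcnk13 held a GAGGAA match, and Kcns3 a GC box and 3 GAGGAA matches. None of the 5 windows held a TATA box, an AP-1 site or an E-box match. Of the 94 genes 69 had an entry, and 46.4% of those windows held a GC box, against 32.6% of 27025 genes. These 27025 were all genes of the RefSeq table, with no limit to protein-coding ones. Where a gene had several starts, members took the one nearest the GENCODE start and other genes the one of lowest coordinate. The sets were thus not chosen alike, and the shares only describe them. A TATA box was found in 2.899% against 12.9%, CCAAT in 27.5% against 34.2% and GAGGAA in 26.1% against 23.1%. The AP-1 site was found in 4.35% against 6.88% and the E-box in 7.25% against 5.94%. The median G and C content was 58.8% against 52%. The RefSeq start lay inside the GENCODE gene for Kcne1l and Kcns3, so 96 of the 250 bases shown for Kcne1l and 214 of the 250 shown for Kcns3, with every match marked in Kcns3, are within the GENCODE gene and not before it. A match is a run of letters and not a measured binding site.

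Among the higher genes Kcne1l (chrX:142304752-142306294, minus strand), a subunit of the Kcne family also called Kcne5, differed most. It was at 2.48 and 2.24 CPM in lemborexant 1 and 10, 5.49 CPM in vehicle 1 and 4.99 CPM in vehicle 4, and at 11.7 to 32.8 CPM (median 17.8) in the other 15. The groups did not overlap. Kcne1l had a log2 difference of 2.44 (SE 0.30, adjusted p = 1.37e-05, and 0.000344 with pairs summed), or 5.42-fold.

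Kcnk13 (chr12:99964499-100062682, plus strand), the tandem-pore channel that carries the resting potassium current of microglia, was at 3.32, 2.57, 4.22 and 3.67 CPM in lemborexant 1, lemborexant 10, vehicle 1 and vehicle 4. In the other 15 libraries it was at 6.53 to 15.3 CPM (median 9.11), above all 4 of them and highest in lemborexant 6. For Kcnk13 the log2 difference was 1.35 (SE 0.20, adjusted p = 8.13e-05, and 0.00142 with pairs summed).

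Kcnk6 (chr7:29221926-29232515, minus strand), a tandem-pore channel described in macrophages, was at 1.34, 1.12, 1.32 and 1.22 CPM in the same 4 libraries in that order. It was at 1.73 to 6.17 CPM (median 3.21) in the other 15, again without overlap. For Kcnk6 it was 1.47 on the log2 scale (SE 0.26, adjusted p = 0.000515, and 0.00213 with pairs summed).

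Kcnj10 (chr1:172341210-172374085, plus strand), the astrocyte and oligodendrocyte inward rectifier, was at 48.3, 45.9, 60.3 and 44.2 CPM in the 4 libraries. It was at 70.4 to 151 CPM (median 90.4) in the other 15, and every one of them lay above the 4. Kcnj10 was 0.95 higher on the log2 scale (SE 0.16, adjusted p = 0.000225, and 0.00426 with pairs summed). Of all 81 genes 4 were higher without overlap (4.94%, against 6.33% of all genes), and these are the 4 just described.

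These 4 genes were also called among vehicle libraries alone, 2 against 7, where 6 of 69 members passed (5.84% of all genes did, 5.16% higher and 0.676% lower). The adjusted p there was 0.0122 for Kcne1l, 0.0145 for Kcnk6, 0.0187 for Kcnk13 and 0.0432 for Kcnj10. Kcnh3 and Kcnj14, named after their values were seen, were lower in that fit (adjusted p = 0.0354 and 0.0398). Kcnh3 overlaps Mcrs1 on the opposite strand (mean 76.7 CPM), and the strand setting is not given. With the hippocampal score as a covariate 7 of 81 were called (9.57% of all genes), with the same 4 higher (8.59% of all genes) and Kcnc4, Kcnk9 and Kcnt1 lower (0.974% of all genes), also named after their values were seen. The other 2 higher genes were called only with the pairs kept apart. Kcne4 had a log2 difference of 0.94 (adjusted p = 0.0337, and 0.163 with pairs summed). Kcnn4, the intermediate-conductance calcium-activated channel of immune cells, is named after its value was seen, since its mean is under 1 CPM: its log2 difference was 1.58 (adjusted p = 0.0246, and 0.145 with pairs summed).

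Markers of most glial lists were higher beside these genes, where 13.2% of all genes tested were higher. Microglial markers were called higher in 9 of 10 cases, with a summed level of 347 to 588 CPM in the 4 libraries and 820 to 2673 CPM in the 15. Markers of disease-associated microglia, left without Cst7 because it made the split, were higher in 10 of 10 (135 to 159 against 398 to 2071 CPM). Reactive astrocyte markers were higher in 7 of 8 (605 to 737 against 3580 to 10550 CPM) and general astrocyte markers in 7 of 9 (5045 to 5730 against 5359 to 8023 CPM). Oligodendrocyte markers were higher in 8 of 10 (4789 to 7972 against 5628 to 15431 CPM). T cell markers were higher in 6 of 8 (3.87 to 6.07 against 7.59 to 20.2 CPM). Oligodendrocyte precursor markers were higher in 1 of 7 (205 to 239 against 235 to 316 CPM). With the pairs summed, 7 of 10 microglial, 10 of 10 disease-associated, 7 of 8 reactive astrocyte and 5 of 9 astrocyte markers were called higher. For oligodendrocytes it was 3 of 10, for T cells 5 of 8 and for precursors 1 of 7, beside 8.45% of all genes. None of these markers was at 0 in all libraries or throughout the low set. The part that cell makeup takes in the potassium channel differences was not tested.

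A further 4 channels known from immune cells, glia or vessels were not called. Kcna3, a Shaker channel of T cells and activated microglia, was at 1.79 to 3.69 CPM in the 4 libraries and 1.09 to 4.62 CPM (median 2.94) in the 15. Kcnj2, an inward rectifier, was at 1.55 to 8.68 CPM against 4.90 to 12.7 CPM (median 8.03). Kcnj8, the vascular pore of ATP-sensitive channels, was at 3.898 to 9.45 against 5.56 to 12.01 CPM, and Kcnj16, the glial partner of Kcnj10, at 28.3 to 42.1 against 20.6 to 46.6 CPM. Each of these ranges overlapped.

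Of the lower genes, Kcnj11 (chr7:46093953-46100764, minus strand), the neuronal pore of ATP-sensitive channels, was at 22.4, 23.3, 21.4 and 23.7 CPM in lemborexant 1, lemborexant 10, vehicle 1 and vehicle 4. It was at 9.37 to 18.4 CPM (median 16.7) in the other 15, all below the 4. Kcnj11 had a log2 difference of −0.53 (SE 0.13, adjusted p = 0.00599, and 0.0250 with pairs summed). Kcnj3, a G-protein-gated inward rectifier, was the other gene lower without overlap, at 80.6 to 87.8 CPM against 23.2 to 72.9 CPM (2 of 81 genes, 2.47%, against 2.27% of all genes). Its log2 difference was −0.61 (adjusted p = 0.0152, and 0.0635 with pairs summed).

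Kcnk4 (chr19:6923966-6934515, minus strand), a mechanically gated leak channel, was at 10.8, 12.8, 10.4 and 12.3 CPM in the 4 libraries, and at 3.25 to 10.98 CPM (median 5.91) in the others. Lemborexant 3 alone reached into the range of the 4. Kcnk4 had a log2 difference of −0.82 (SE 0.24, adjusted p = 0.0189, and 0.0420 with pairs summed). Kcnk4 overlaps Catsperz on the same strand, so some reads could belong to either gene.

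Kcns3 (chr12:11090202-11151056, minus strand), a silent subunit of parvalbumin interneurons, was at 11.4, 12.8, 11.5 and 15.4 CPM in the 4 libraries. It was at 4.01 to 12.3 CPM (median 8.96) in the others, and vehicle 8 was the only one above the lowest of the 4. The log2 difference was −0.64 (SE 0.16, adjusted p = 0.00830, and 0.0374 with pairs summed).

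**Figure D4:**
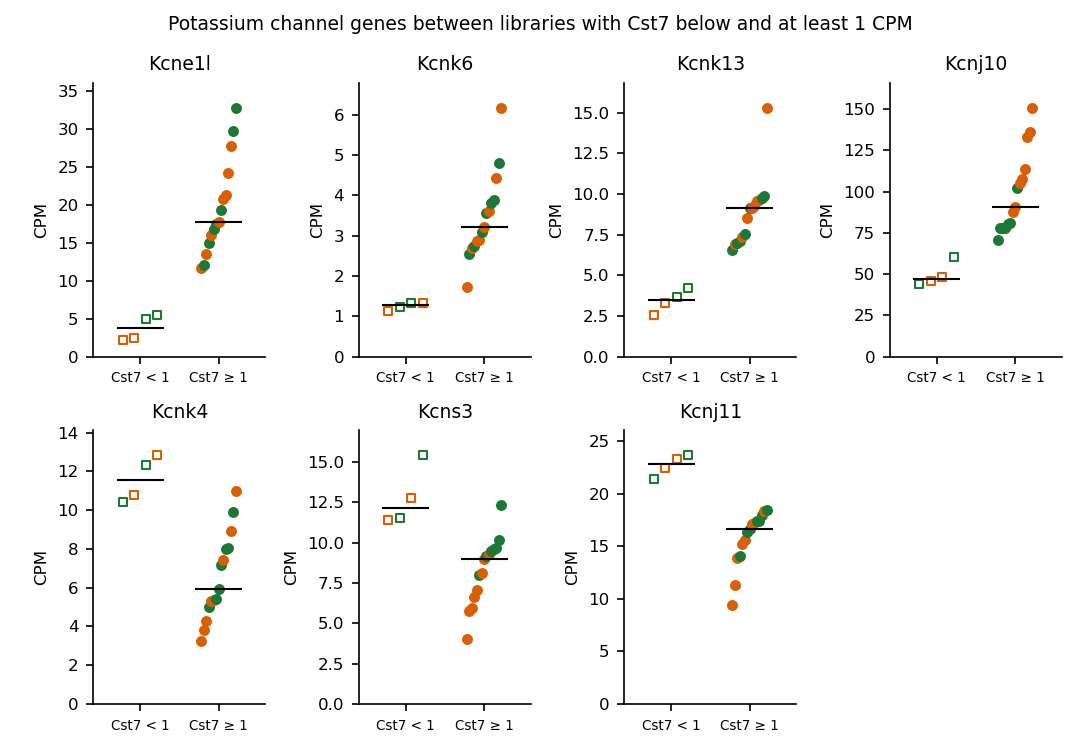
CPM in each library of 4 higher and 3 lower genes, for the 4 libraries with Cst7 below 1 CPM (white squares) and the 15 others (orange, lemborexant; green, vehicle; lines at the medians). The upper 4 genes do not overlap between the sets, and of the lower 3 only Kcnj11 does not.

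Further lower genes were the sodium-activated Kcnt2 (log2 difference −0.71), the A-type pore Kcna4 (−0.65), Kcnip2 (−0.55), Kcnip4 (−0.52) and Kcnd2 (−0.29). Kcnd2 and its Kcnip partners form the dendritic A-type current. None of these 5 was called with the pairs summed (adjusted p = 0.129, 0.1005, 0.103, 0.155 and 0.134 in that order), and none was called among vehicle libraries. The span of Kcnip4 overlaps other genes, among them Gm43318 on the same strand (mean 38.0 CPM) and Gm43670 on the opposite strand (149.9 CPM). Kcnd2 overlaps Gm42583 on the same strand (17.3 CPM). Whether reads were shared between them was not tested. Kcnip2 was the only gene called in both comparisons. Broad neuronal markers were lower in 5 of 10 cases, where 6.41% of all genes were. Their sums were 10013 to 10611 CPM in the 4 libraries and 4130 to 8882 CPM in the 15. Excitatory neuron markers summed to 4185 to 4501 against 724 to 3675 CPM, with 1 of 10 lower. Hippocampal markers were lower in 3 of 15 cases (1219 to 1405 against 539 to 1365 CPM). Thalamic markers were higher in 3 of 12 (207 to 258 against 179 to 624 CPM), beside 13.2% of all genes. With the pairs summed, 1 of 10 broad neuronal, 0 of 10 excitatory and 0 of 15 hippocampal markers were lower (1.78% of all genes were). Of the thalamic markers 1 of 12 was then higher (8.45% of all genes were). With the hippocampal score as a covariate the log2 difference of Kcnip2 between the Cst7 sets was −0.16 (adjusted p = 0.556).

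By subfamily, 1 of 6 Kcna genes, 1 of 8 silent subunits and 3 of 13 Kcnj genes passed, beside 19.6% of all genes tested. Of the silent subunits 7 of 8 had a negative difference (median −0.39), as did 4 of 4 in the Slo group of Kcnma, Kcnt and Kcnu genes (median −0.34) and 6 of 8 in Kcnh (median −0.30). The 4 tested Kcne genes had a median of 1.39, with 2 called. The leak channels were split, with 2 higher, 1 lower and a median of −0.09 over 9. Axonal and fast-spiking pores had overlapping levels: Kcna1 was at 31.8 to 67.9 against 22.4 to 65.0 CPM, Kcna2 at 47.0 to 93.9 against 40.1 to 88.5 CPM, and Kcnc1, a fast-spiking pore, at 38.0 to 51.8 against 32.2 to 59.7 CPM. Kcnq3, an M-current pore, was at 56.9 to 75.0 against 30.0 to 65.4 CPM.

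Kcnj13 and Kcne2, both known from the choroid plexus, had the largest SD relative to the mean of the 27 genes with at least 10 TPM and were called in neither comparison. Kcnj13 ran from 2.63 to 251 CPM with lemborexant (median 123) and from 0.260 to 157 CPM with vehicle (median 65.0). Kcne2 ran from 0.857 to 58.6 CPM (median 30.9) and from 0.0868 to 44.3 CPM (median 20.9). Both were low in lemborexant 6 and 7 and in vehicle 1, 3, 4 and 5, which were also the 6 libraries with the lowest Ttr, the main choroid plexus transcript. Ttr ran from 24.2 CPM in vehicle 3 to 10321 CPM in lemborexant 5. Kcnj13 overlaps Gigyf2 on the opposite strand, and the strand setting is not given. Gigyf2 had a mean of 59.4 CPM, while Kcnj13 was at 0.260 CPM in vehicle 5 and 0.529 CPM in vehicle 3. Whether some reads of one gene were counted for the other was not tested.

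**Figure D5:**
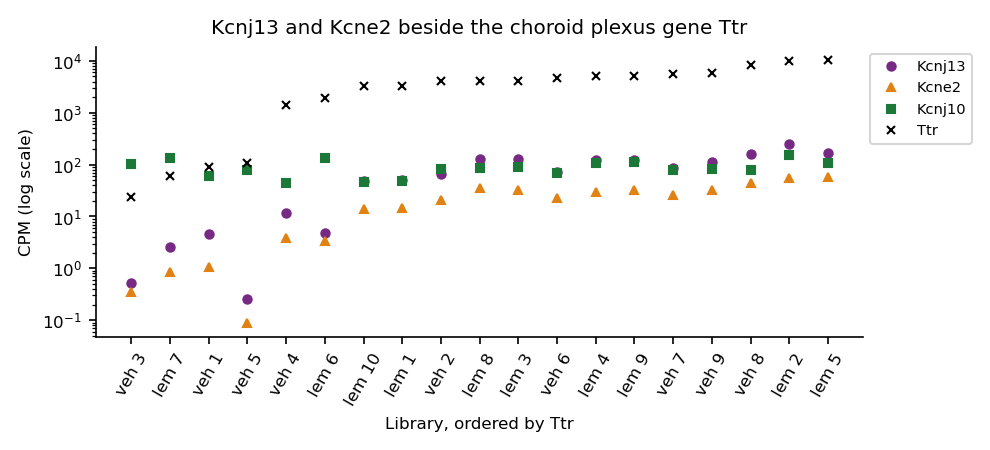
CPM (log axis) of Kcnj13, Kcne2, Kcnj10 and the choroid plexus gene Ttr in the 19 libraries, ordered by Ttr. The 6 libraries with the lowest Ttr hold at most 11.8 CPM of Kcnj13, and the others 48.2 to 251 CPM, while Kcnj10 does not follow this order.

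A list of 29 partners and potassium transporters was read beside the channels, and 27 of them were tested. With lemborexant 2 were higher (0.953% of all genes were), Dpp10, an A-type channel partner (log2 difference 0.87, adjusted p = 0.0298), and the pacemaker channel Hcn4 (1.62, adjusted p = 0.0387). The sodium pump subunit Atp1b1 was lower (−0.41, adjusted p = 0.0330), as were 1.65% of all genes. With pairs summed none passed (adjusted p = 0.103, 0.0776 and 0.0834). Where Cst7 was at least 1 CPM 6 of the 27 were higher and 2 lower, beside 13.2% and 6.41% of all genes. The glial pump subunits Atp1b2 (0.71, adjusted p = 0.000144) and Atp1b3 (0.88, adjusted p = 0.00231), the chloride and potassium importer Slc12a2 (1.09, adjusted p = 0.00193) and Lgi1, a secreted partner of Kcna channels (−0.60, adjusted p = 0.00253), were also called with pairs summed.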

How the data were processed

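Per the labels' protocols, RNA from frozen cortex was made into libraries with a Takara Clontech SMARTer Ultra Low kit. The submitters' processing notes list bcl2fastq, DRAGEN 3.9.3-8 and the GRCm38 build. Which annotation was used, and whether counting followed the strand, is not given in the sources used here. The deposited tables give, per the file headers, an estimated count and a TPM value for each of 55487 genes in each library. Each count test took the authors' estimated counts rounded to whole numbers. Levels across genes, and 2 alternatives, rest on the deposited TPM values. For gene symbols and positions the identifiers were looked up in a GENCODE annotation of GRCm38, and 55227 were found.

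Groups came from the treatment labels, and libraries were numbered within a group in accession order. The series' design text speaks of triplicates, and the labels' 10 and 9 libraries were followed. Counts were tested with edgeR 4.0.16 (quasi-likelihood, robust, TMM factors, its expression filter; R 4.3.3). Tests were two-sided, with Benjamini-Hochberg adjustment over all genes tested and a threshold of 0.05. Each SE was obtained as the absolute log2 difference over the root of its F statistic. CPM uses TMM factors. The tests were also run on simulated counts. These held independent libraries without nearly alike pairs or tissue differences, so they cannot check the tests against those. The second comparison splits libraries at 1 CPM of Cst7 and keeps treatment as a covariate.

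As alternatives, counts were scaled with RLE factors, left unfiltered, or tested with DESeq2 1.42.0 or limma 3.58.1's voom with quality weights. Genes of at least 1 TPM were also tested with limma, on log2(TPM + 1) and on log2(TPM + 0.1). Further ones were the library number range (859 to 933 and 1064 to 1602) as a covariate, and summed pairs. Others left out each library, libraries over 3% ribosomal RNA, lemborexant 7 with vehicle 7, or libraries with Cst7 below 1 CPM, or took the hippocampal score as a covariate. The following were chosen after seeing the data: the Cst7 set as a covariate for treatment, and, for the Cst7 split, only libraries 1064 to 1602, vehicle libraries only, and each of the 16 units left out.

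Named genes are all members called between treatments, up to 10 a direction between the Cst7 sets (mean of at least 1 CPM), the most abundant member of each subfamily, and a panel. Results for 2 member genes are not reported or drawn here, though the counts over members include them. The members, lists and rules were chosen with earlier results of these data known. Each p-value measures only the spread between these libraries, which may be technical.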

Additional observations from a re-analysis of the deposited data

Results flagged for a closer look

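Among 41 named genes, each treatment group was searched for a library whose gap to its nearest neighbour took up more of the group's range than Dixon's bound allows. The search covered 82 groups and marked 7 of them. About 1 in 20 groups would be marked by chance if the values were independent and normally spread. Here the nearly alike libraries were counted apart and the genes share the same libraries, so that rate is only a rough guide.

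Of the axonal pores, Kcna1 was at 22.4 CPM in lemborexant 7, with the next library of that group at 48.6 CPM, and Kcna4 was at 39.6 CPM in vehicle 1, with the next at 25.2 CPM. The fast-spiking pore Kcnc2 was also lowest in lemborexant 7, at 26.1 CPM against 44.0 CPM in the next library. Its relative Kcnc1 was highest in lemborexant 2, at 59.7 CPM against 51.3 CPM. The small-conductance channel Kcnn2 was at 34.5 CPM in lemborexant 6, with the next at 24.9 CPM.

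Of the genes called between treatments, Kcnt1 was at 12.7 CPM in lemborexant 5, with the next lemborexant library at 22.9 CPM. Kcnip2 was at 98.0 CPM in vehicle 4, with the next vehicle library at 76.9 CPM. Without vehicle 4 the log2 difference of Kcnip2 was −0.72, with an edgeR adjusted p of 0.0651 (0.00163 to 0.584 over all alternatives).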

How the results depend on the processing

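No paired analysis was possible because the labels give library numbers but no replicate numbers shared between the groups. For lemborexant against vehicle, the 4 called genes became 2 with no expression filter, with the library number range as a covariate or without lemborexant 7 and vehicle 7. They became 0 with pairs summed, with the hippocampal score as a covariate, without libraries over 3% ribosomal RNA, in libraries 1064 to 1602 alone and without the low Cst7 libraries with pairs summed. In edgeR 24, 11, 15, 19 and 26 members were then at an unadjusted p under 0.05, in that order. The count was 9 with the Cst7 set as a covariate, 11 with DESeq2, 18 with voom, 1 with limma on log2(TPM + 1) and 0 on log2(TPM + 0.1) (18 unadjusted). Leaving out single libraries gave 1 to 7. Kcng2 kept its call in 28 of 34 alternatives, Kcnip2 in 23 of 34, Kcnt1 in 11 of 34 and Kcnh5 in 9 of 32. For each gene 19 of these alternatives left out a single library, which kept the other library of any nearly alike pair.

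Between the Cst7 sets, the 16 called genes became 8 with pairs summed, 7 with the hippocampal score, 7 in libraries 1064 to 1602, 6 in vehicle libraries, 43 with voom and 6 with limma on TPM with either pseudocount. RLE factors gave 21, with 15 of them lower, and DESeq2 gave 24, with 18 lower. Leaving out single libraries gave 6 to 22, and leaving out lemborexant 7 with vehicle 7 gave 23. Leaving out single units of the summed fit gave 3 to 12, with 3 without the unit of lemborexant 1 and 10 and 5 without the units of lemborexant 2, of lemborexant 4 and 9, or of vehicle 2, 3 or 6. Kcne1l, Kcnk6 and Kcnk13 were called in all 49 alternatives and Kcnj10 in 48, the exception being that unit (adjusted p = 0.0924). No gene called in a comparison reversed its direction there in the alternatives run, and uncalled genes were not followed through them. The causes were not tested. Depth limits the lowest of the called genes, since Kcnh5 had as few as 13 reads in a library and Kcnn4 as few as 3.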

Other observations

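In lemborexant 7 a pair of otherwise low channel genes stood out, and both were singled out after their values were seen. Kcna5, a Shaker channel, was at 9.83 CPM there and at most 2.48 CPM in any other library. Kcnj5, a subunit of G-protein-gated inward rectifiers, was at 9.15 CPM there and at most 0.795 CPM elsewhere. By CPM the same library had the lowest Kcna1 (22.4 CPM), Kcnab2 (128 CPM), Kcnj3 (23.2 CPM), Kcnq3 (30.0 CPM) and Kcnma1 (60.7 CPM) of all 19. On the TPM scale only Kcnj3 of these was lowest there (9.97). Kcna1 (6.43), Kcnq3 (4.07) and Kcnma1 (9.10) were then lowest in vehicle 5, and Kcnab2 (53.5) in lemborexant 6. Lemborexant 7 also had the highest Kcnj16 (46.6 CPM) and Kcna3 (4.62 CPM), on both scales.

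Lemborexant 6 held the lowest Kcnip4 (21.2 CPM), Kcnt2 (3.29 CPM), Kcna4 (8.35 CPM) and Kcnd2 (37.7 CPM), and the highest Kcnk13 (15.3 CPM), Kcnk6 (6.17 CPM) and Kcnj8 (12.01 CPM). Its Cst7 level, 131 CPM, was the highest of the lemborexant libraries, and 3.23% of its reads were on ribosomal RNA. That share was larger in vehicle 3 (3.52%), vehicle 4 (3.44%) and vehicle 5 (3.83%). Vehicle 5, with the highest Cst7 of all at 144 CPM, had by CPM the highest Kcne1l (32.8 CPM) and Kcnk1 (104.5 CPM) and the lowest Kcna3 (1.09 CPM) and Kcna2 (40.1 CPM). On the TPM scale the high values did not keep that rank. Kcne1l was then highest in lemborexant 7 (28.7, against 23.9 in vehicle 5) and Kcnk1 in lemborexant 5 (77.5, against 55.5 in vehicle 5).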
